A study of Mus musculus with 5 samples.

Results

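Dense clusters are stretches of the genome in which many H3K27ac peaks away from gene ends lie close together. They were found in a single peak list made for 4 H3K27ac libraries over 1 input library, all from bone marrow cells labelled as HSC/MPP (haematopoietic stem cells and multipotent progenitors). The cells were sorted as CD45.2+, lineage-negative, Sca1+ and Kit+, and both H3K27ac and input libraries carry the genotype label Mll3/4 deleted. How the deletion was made and the age of the animals are not given in the sources used here. The name of the peak list calls it an overlap and optimal set, with no further account of how the libraries were combined. The list has no column of a single library and no other genotype, so the values below have no replicate error and show no gain or loss. The cells were measured in bulk, so a mark in fewer cells and a weaker mark in each cell cannot be told apart.

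The members were chosen by position alone. A peak was distal when its summit lay more than 1 kb from either end of every protein-coding gene. Distal peaks of chromosomes 1 to 19 were joined when the gap between neighbours was at most 12 kb, and groups of 8 or more peaks were kept. Of the 15331 distal peaks on these chromosomes, 1668 fell into 134 dense clusters. This was 10.9% of the distal peaks (95% Wilson interval 10.4% to 11.4%, counting error only) and 7.27% of the 22948 peaks of the whole list. All 8869 groups of joined peaks entered, so the dense clusters were 1.51% of them. The values that chose the members are peak positions from the same H3K27ac over input contrast as the signal values and widths, which are therefore described without a test.

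Acetylation of lysine 27 on histone H3 is placed by the acetyltransferases p300 and CBP and marks active promoters and enhancers. Enhancers of genes that define a cell type often lie in groups along or beside the gene, and such groups are known as super-enhancers or stretch enhancers when they are strongly marked. Mll3 and Mll4 methylate lysine 4 of histone H3, above all at enhancers, and aid the binding of p300 there. In blood progenitors, such groups of enhancers are known at genes of lineage transcription factors.

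The sequences here belong to the 5 strongest members that cover an annotated transcript start, and show how far these starts differ in CpG content. The 250 bases before the start are printed 5′ to 3′ on the strand of the gene, from RefSeq on GRCm38.p6. The Erg start is an inner one, far from the outer 5′ end of the gene. Capitals mark CpG dinucleotides.
Erg chr16:95459349-95459598(-): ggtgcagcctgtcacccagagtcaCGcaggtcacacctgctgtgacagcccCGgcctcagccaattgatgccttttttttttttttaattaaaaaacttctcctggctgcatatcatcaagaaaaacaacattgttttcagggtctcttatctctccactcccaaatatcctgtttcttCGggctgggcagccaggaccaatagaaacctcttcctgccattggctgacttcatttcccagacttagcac
Rhoh chr5:65863334-65863583(+): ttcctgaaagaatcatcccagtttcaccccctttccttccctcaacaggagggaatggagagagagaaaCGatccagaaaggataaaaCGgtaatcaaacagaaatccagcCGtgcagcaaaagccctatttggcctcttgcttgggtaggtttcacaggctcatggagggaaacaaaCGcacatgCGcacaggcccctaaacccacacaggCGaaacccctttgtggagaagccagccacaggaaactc
St3gal6 chr16:58523427-58523676(-): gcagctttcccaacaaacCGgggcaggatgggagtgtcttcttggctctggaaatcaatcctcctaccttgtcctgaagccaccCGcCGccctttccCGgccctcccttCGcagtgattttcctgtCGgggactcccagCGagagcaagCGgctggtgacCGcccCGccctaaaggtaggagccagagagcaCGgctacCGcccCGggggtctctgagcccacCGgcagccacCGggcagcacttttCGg
Blnk chr19:40994222-40994471(-): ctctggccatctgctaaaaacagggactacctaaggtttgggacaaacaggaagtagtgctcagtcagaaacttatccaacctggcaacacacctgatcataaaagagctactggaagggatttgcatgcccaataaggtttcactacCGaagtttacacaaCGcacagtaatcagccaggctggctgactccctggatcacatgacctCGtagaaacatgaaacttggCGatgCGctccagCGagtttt
Cd47 chr16:49855411-49855660(+): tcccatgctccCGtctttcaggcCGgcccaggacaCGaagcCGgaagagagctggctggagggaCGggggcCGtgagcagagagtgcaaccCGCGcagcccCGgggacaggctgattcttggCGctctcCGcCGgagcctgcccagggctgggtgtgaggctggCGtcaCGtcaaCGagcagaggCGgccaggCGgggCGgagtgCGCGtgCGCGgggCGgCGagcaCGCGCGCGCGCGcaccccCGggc
The Erg, Rhoh and Blnk stretches hold 3, 6 and 6 CpG dinucleotides, while the St3gal6 and Cd47 stretches hold 16 and 31. Erg encodes an ETS transcription factor needed by stem cells, and Rhoh a signalling protein of blood cells. Blnk encodes the adaptor that links the pre-B-cell receptor to downstream signalling. St3gal6 encodes a sialyltransferase and Cd47 the surface protein that inhibits uptake by macrophages.

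The dense clusters were long and moderately filled. Their span ran from 19.1 kb to 119.4 kb, with a median of 41.3 kb, and together they spanned 6.43 Mb. Peaks filled between 14.2% and 79.6% of the span, with a median of 37.7%. The median cluster held 11 peaks (interquartile range 9 to 14), 28 clusters held exactly 8 and 11 clusters held 20 or more. Just outside the rule lay 44 groups of 7 peaks, whose median signal value was 2.91 and median width 842.5 bp. The 28 clusters just inside it had a median signal value of 2.89 and a median width of 910.5 bp. The signal value is taken here for a ratio of H3K27ac over background at the summit, from its place in the peak format, since no label or header states what it is. Strong and weak refer to this value throughout.

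**Figure D1:**
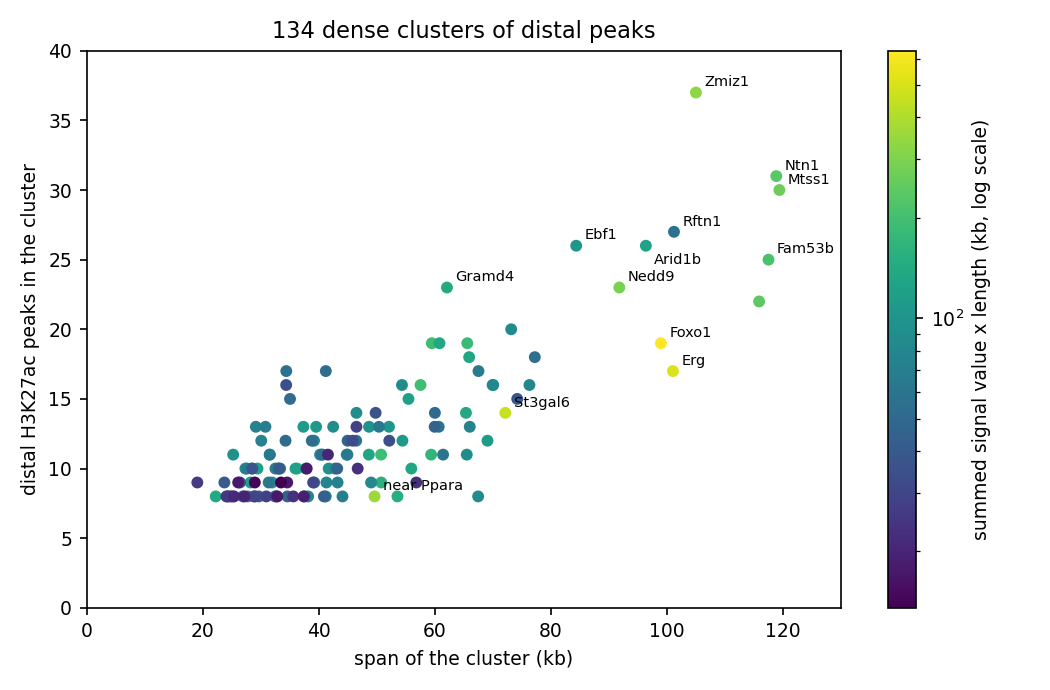
Number of member peaks (vertical axis) against span in kb (horizontal axis) for each of the 134 dense clusters, 1 point per cluster. Colour gives the signal value times length in kb, summed over the cluster, on a log scale. Zmiz1 has the most peaks, with 37, while the highest sums are at Foxo1 and Erg, which have 19 and 17 peaks.

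Member peaks were slightly weaker by median than other distal peaks, with wide overlap. Of the members, 43.3% lay above the median signal value of all distal peaks. The median signal value of the members was 2.85 (interquartile range 2.51 to 3.52), against 2.97 (2.57 to 3.92) for the 13663 other distal peaks. Along the groups, the median was 3.03 for single peaks, 2.96 in groups of 2 to 3, 2.90 in groups of 4 to 7 and in groups of 8 to 14, and 2.78 in groups of 15 or more. Member peaks were wider, with a median of 929.5 bp against 806 bp. Under other settings the width difference ran from 74 bp, with a gap of 20 kb, to 382 bp, with distal peaks within 1 kb merged. The difference in median signal value ran from -0.061, with a gap of 5 kb, to -0.18 after that merging. A −log10 q of at least 5 was reached by 342 of the 1668 members, or 20.5% (18.6% to 22.5%), against 26.0% (25.3% to 26.8%) of the other distal peaks. In the same comparison, 29.9% of members and 27.6% of other distal peaks had a q-value above 0.05. The members held 14.2% of the bases covered by distal peaks and 14.97% of their summed signal value times length, above their 10.9% share of the peaks.

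**Figure D2:**
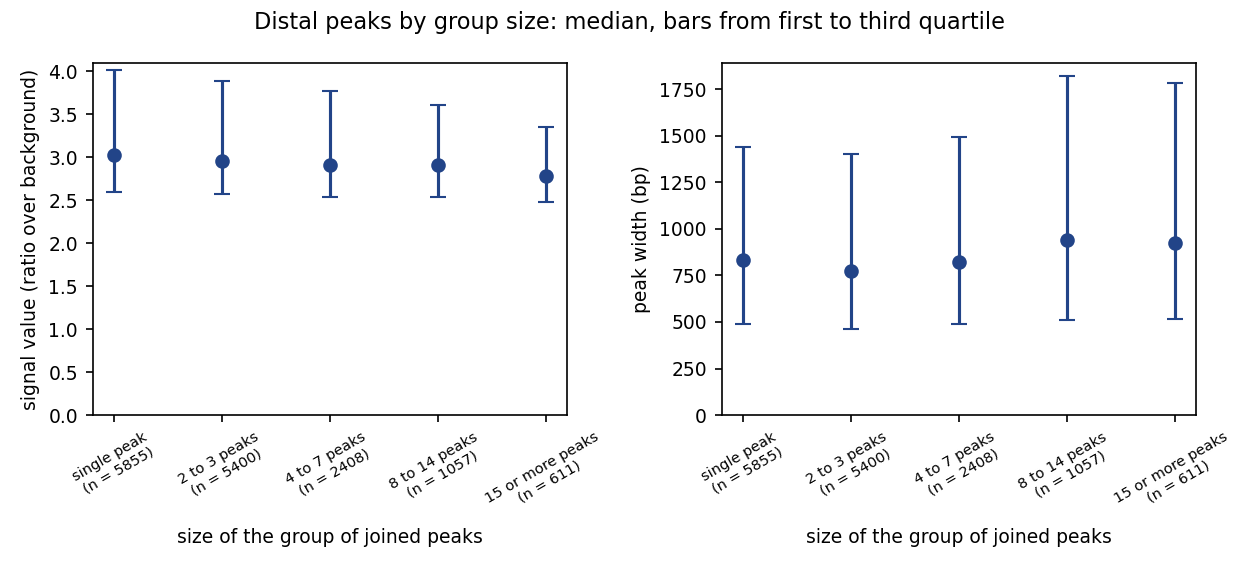
Signal value (left, ratio) and peak width (right, bp) of distal peaks by the number of peaks in their joined group. Points are medians and bars run from the first to the third quartile over peaks, which are not replicates. The median signal value goes from 3.03 for single peaks to 2.78 in groups of 15 or more, and the median width is highest in the groups of 8 to 14, at 940 bp.

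The threshold on the list decides whether dense clusters exist at all. Among the 3900 distal peaks with −log10 q of at least 5, no group reached 8 peaks. The largest groups there held 6 peaks, and there were 2 of them, at the Erg cluster on chromosome 16 and at a cluster near Ppara on chromosome 15. With a q-value of at most 0.05, 68 dense clusters were found. Of the 134 clusters, 17 held no peak with −log10 q of at least 5, and 21 had no signal value as high as 4.

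Neighbouring members lay close together. The median of the 1534 gaps inside the clusters was 1051 bp (interquartile range 340 to 3799 bp). Gaps under 1 kb made up 49.02% of all gaps, and 18.9% were over 5 kb. When distal peaks within 1 kb were merged into single regions first, 41 clusters of 8 or more regions were left. How far a continuous acetylated stretch was split into several calls was not tested.

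A single peak often carried much of a cluster. The peak with the largest product of signal value and length held between 10.2% and 86.1% of the cluster's sum, with a median of 35.4%, and in 25 clusters it held 50% or more. The product applies the value taken for the summit to the full length of a peak. Sums and shares built on it therefore favour wide peaks. The strongest peak was also the widest in 79 clusters. It was the first or the last peak of the cluster in 30 of 134. Signal values of at least 10 were found in 16 members, which lay in 15 clusters, out of 188 such distal peaks. This was 0.959% of members, against 1.26% of other distal peaks. Of the 22 distal peaks wider than 10 kb, 12 were members.

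Few members covered a transcript start. RefSeq start windows were used for all chromosomes but 18, which leaves 1651 members. Some genes on the other chromosomes lacked a start window too. A position along the gene was set for 98 of the 119 clusters over a gene, and the rest lay over genes without a window. Ets1, Fli1, Mtss1 and Ntn1 were among these genes, as were Ago2, Zhx2 and Celsr1 on chromosome 15. Starts of such genes could not be counted, and how far this lowers the share for members or for other distal peaks was not tested. Of the 1651 members, 47 covered a start, or 2.85% (2.15% to 3.76%), against 6.48% (6.07% to 6.92%) of 13099 other distal peaks. Those 47 members had a median signal value of 6.30 and a median width of 3003 bp. The members without a start had medians of 2.84 and 913 bp. Among the other distal peaks the medians were 5.05 with a start and 2.94 without. In 29 of 132 clusters, or 21.97%, the strongest peak covered a start.

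The summits lay mostly downstream of the start. The 47 members gave 48 pairs of peak and gene, 28 with a protein-coding gene and 20 with a long non-coding RNA gene. The summit was downstream of the start in 25 of the 28 protein-coding pairs and in 10 of the 20 non-coding pairs. At Erg it was 1.97 kb downstream, at Blnk 1.23 kb, at Rhoh 1.01 kb and at St3gal6 0.912 kb. At Inpp5d, which encodes the inositol phosphatase SHIP1, it was 5.63 kb downstream, in a peak with a signal value of 11.97. The rule kept out summits within 1 kb of an outer end of a protein-coding gene, which bears on these distances. Among the other distal peaks, 68.0% of pairs had the summit downstream, against 72.9% for members. By kind of gene, those were 437 of 591 protein-coding pairs and 184 of 322 non-coding pairs of the other distal peaks.

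**Figure D3:**
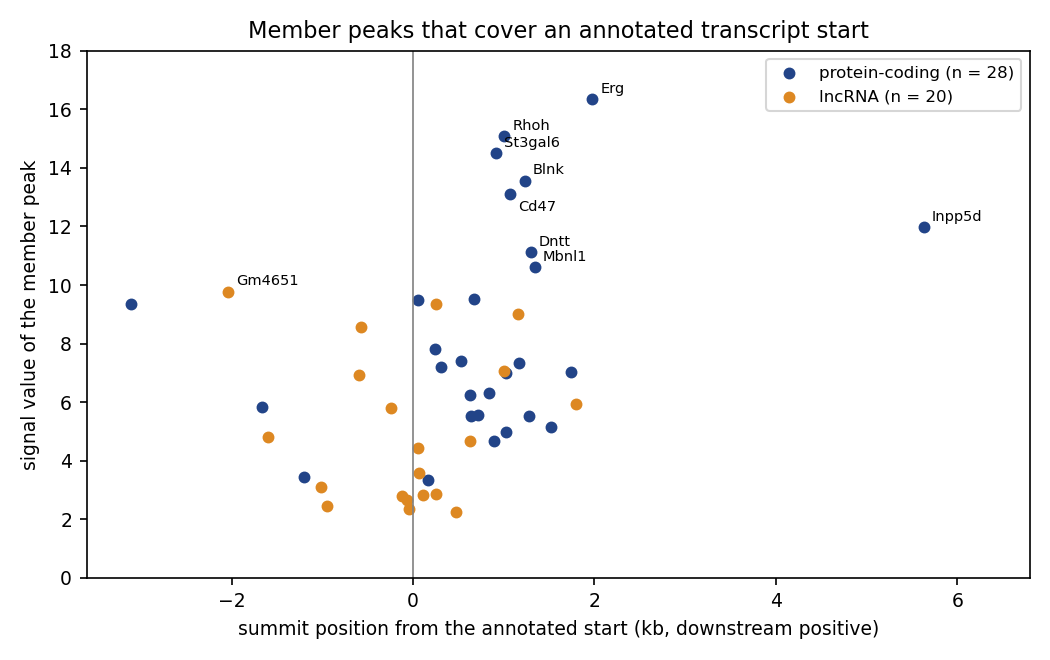
Signal value of each member peak that covers an annotated start (vertical axis) against the position of its summit from that start in kb (horizontal axis, downstream positive). Each point is a pair of peak and gene, 28 protein-coding and 20 long non-coding. The points with the highest signal values are protein-coding and downstream, led by Erg at 1.97 kb.

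The start windows under members were poor in CpG dinucleotides. The median was 5 in 300 bases over 48 windows, against 14 over 913 windows under other distal peaks and 7 over all 32851 windows. The lowest and highest counts under members were 1 and 37. Short motifs of blood factors were searched on both strands. The letters TGTGGT, for RUNX factors, were in 27.1% of the windows under members, 15.1% of those under other distal peaks and 16.8% of all windows. The E-box CAGGTG was in 31.3%, 16.5% and 20.2%, and the E-box CAGCTG in 22.9%, 18.7% and 16.3%. The EBF letters CCCNNGGG were in 18.8%, 17.3% and 13.7%. The ETS letters CAGGAAGT were in 3 of the 48 windows, PU.1 letters GAGGAAGTG in 2, GATA letters AGATAA in 5, FOX letters TGTTTAC in 1 and AP-1 letters TGANTCA in 6. As shares of the windows under members these were 6.25%, 4.17%, 10.4%, 2.08% and 12.5%. Under other distal peaks the shares were 6.68%, 3.40%, 7.34%, 4.82% and 8.43%, and in all windows 3.33%, 1.57%, 11.2%, 3.65% and 7.81%. GAGGAAGTG and CAGGAAGT share the letters AGGAAGT. Most of the windows under members lie beside the summit, a few hold it, and they stand for few members. A match is a description only.

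The clusters with the most peaks lay over long genes. The first was over Zmiz1, a transcriptional coregulator, on chromosome 14 from 25459425 to 25564408. Its 37 peaks had signal values between 1.88 and 5.42, with a median of 3.02, filled 76.6% of the span and included 10 with −log10 q of at least 5. All 37 summits lay inside the gene, the nearest 2.01 kb from its 5′ end. No peak stood far above the others, and the largest product was 15.5% of the sum.

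The next clusters by number were at Ntn1, which encodes the guidance factor netrin-1, with 31 peaks and at Mtss1, an actin- and membrane-binding protein, with 30. Their median signal values were 2.66 and 2.90. The Ntn1 cluster also overlapped Stx8. Rftn1, which encodes the lipid raft protein raftlin, had a larger cluster of 27 peaks. The highest signal value in it was 2.94 and none of its peaks reached −log10 q of 5, so this cluster was long and uniformly weak. Another cluster at Rftn1 held 10 peaks, with signal values up to 3.40. Arid1b, a subunit of BAF chromatin remodellers, had a largest cluster of 26 peaks, with signal values from 2.14 to 6.12. This cluster lay 85.5% along the gene from the 5′ end. Other clusters over Arid1b held 17 and 11 peaks, with signal values up to 3.85 and 7.19.

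Fam53b had 25 peaks, Gramd4 had 23 and Cyth1, which encodes an exchange factor for ARF GTPases, had 22. Nedd9, a scaffold protein of the Cas family, had 1 cluster of 23 peaks and another of 19, with signal values up to 8.56 and 12.98. Mgat4a, an enzyme that branches N-glycans, had 20 peaks and Ablim1, an actin-binding protein, had 19. Their highest signal values were 4.99 and 9.52. The Ablim1 gene had no peak within 1 kb of an outer end, while the Mgat4a gene had one. In both clusters the strongest peak covered an annotated start of the gene, with the summit 0.67 kb downstream at Ablim1 and 1.02 kb at Mgat4a.

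Some clusters with fewer peaks had higher sums. The sum of signal value times length was highest at Foxo1, at 633.4 kb, and 80.2% of it was in a peak of 40850 bp with a signal value of 12.43. This peak ran from 52268541 to 52309390 on chromosome 3, with its highest point at 52272278. Foxo1 lies on the plus strand, and its 5′ end was 3.94 kb before that point. The wide peak thus began close to the gene start and was distal by summit only. The other 18 peaks of the Foxo1 cluster had signal values of at most 4.56. At Erg the sum was 512.6 kb, spread over more peaks. The 5 strongest Erg peaks had signal values of 16.36, 9.77, 8.14, 6.09 and 6.03. All 5 lay in the part of the cluster at higher coordinates, from 95413808 to 95461245 on chromosome 16. At St3gal6, 77.4% of a sum of 455.6 kb was in a peak of 24311 bp. The cluster near Ppara had 360.6 kb. The next large sums were at Zmiz1, Nedd9, Mtss1, Cyth1, Ntn1 and Fam53b, from 327.5 kb down to 210.8 kb. The smallest sums were at Tbc1d22a, with 13.6 kb from 9 peaks, and Svil, with 14.3 kb from 9 peaks, and then at a cluster of heavy chain variable segments, with 17.3 kb from 8 peaks.

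**Figure D4:**
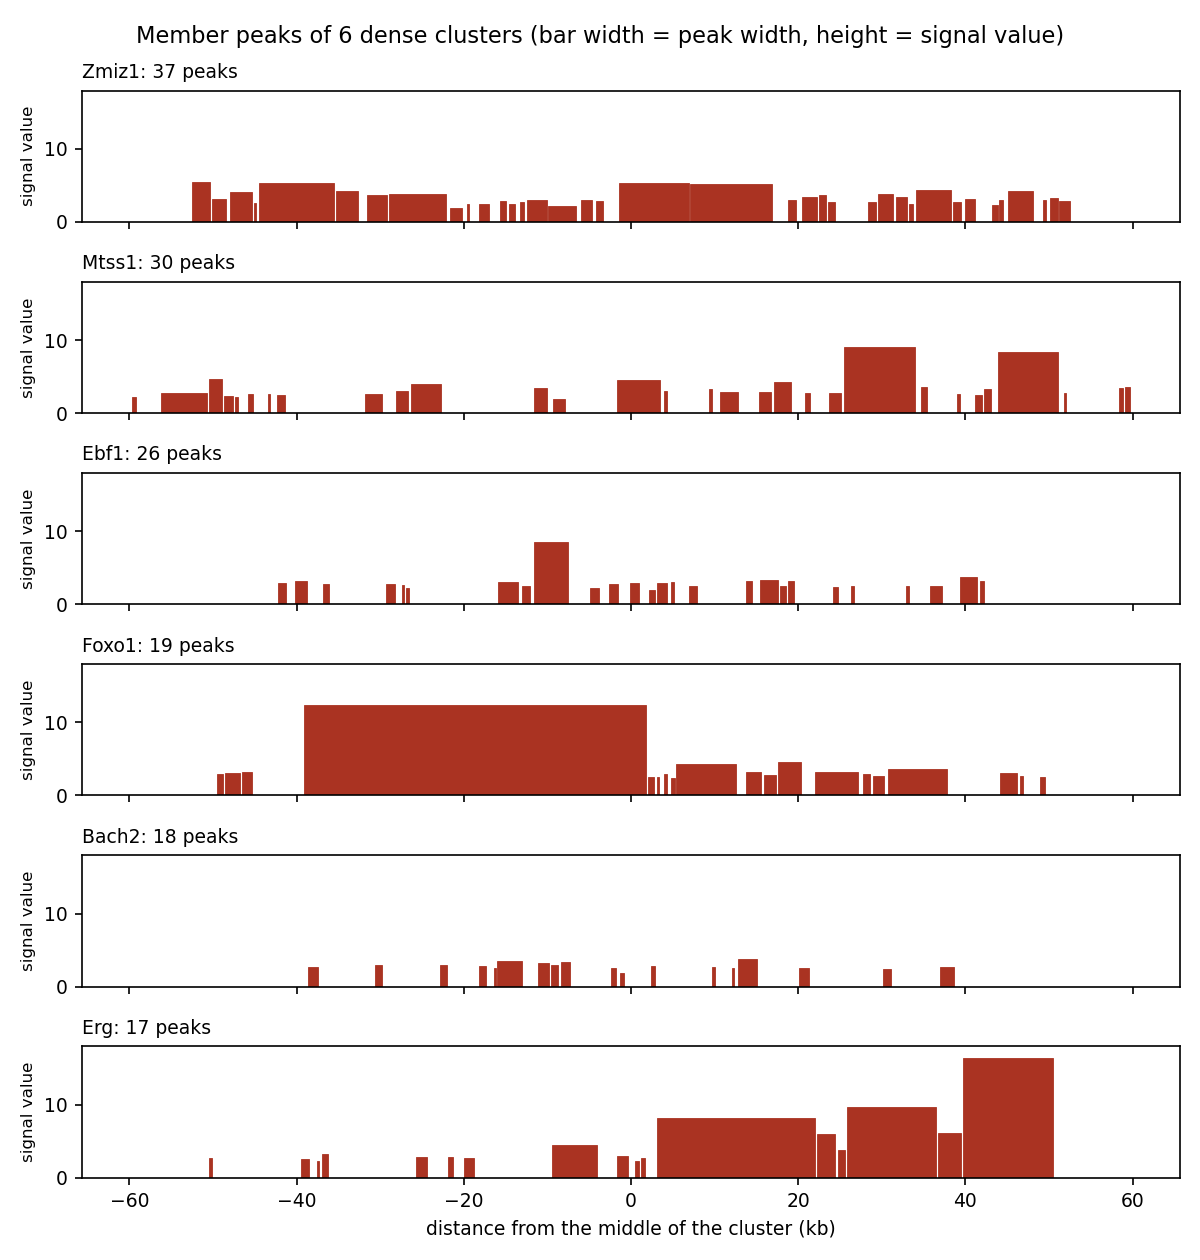
Member peaks of 6 dense clusters, with distance from the middle of the cluster in kb (horizontal axis) and signal value (vertical axis, same scale in each panel). Bar width is peak width. Foxo1 has a single wide peak with a signal value of 12.43, Erg has several high ones, and the 18 peaks at Bach2 are all at or below 3.85.

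The cluster near Ppara lay at chr15:85634810-85684414. Its median signal value of 5.42 was the highest of all 134 clusters, the lowest being 2.08 at the cluster over Hjurp and Mroh2a. The ratio and the q-value ranked peaks differently there: the strongest Hjurp peak had a signal value of 4.41 and a −log10 q of 31.3, and only 1 of the 8 peaks had a q-value above 0.05. The strongest peak near Sox4, with a similar signal value of 4.44, had a −log10 q of 6.93. The Ppara cluster held 8 peaks, the strongest at 13.32 and 12.09, and 6 of the 8 had −log10 q of at least 5. It overlapped no protein-coding gene but the non-coding gene D130051D11Rik, and its span began 50.5 kb from the nearest end of a protein-coding gene.

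The most closely packed clusters were at Arid1b, Tmc6, Ankrd6, a site near Zfp36l2, and Zhx2. They held 4.94, 4.72, 4.65, 4.46 and 4.36 peaks per 10 kb, against a median of 2.68. Their median signal values ran from 2.71 to 3.26.

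Dense clusters lay over protein-coding genes in 119 of 134 cases, or 88.8% (82.4% to 93.1%). By summit, 86.8% (85.0% to 88.3%) of members were inside such a gene, against 66.6% (65.8% to 67.3%) of other distal peaks and 61.0% (59.8% to 62.3%) of single distal peaks. The share was 88.0% (83.9% to 91.2%) in the groups of 7 peaks just outside the rule and 73.7% (67.5% to 79.0%) in the clusters of 8 just inside it. Peaks of a group often share a gene, so the intervals over peaks are too narrow for these comparisons. The genes under a cluster also numbered 119, or 0.576% of the 20665 protein-coding genes on these chromosomes. Their median length was 100.2 kb, against 17.5 kb for all of these genes. Of genes of 100 kb or more, 2.59% lay under a cluster. A long gene offers more room beyond 1 kb of its ends, so the rule itself favours long genes, and its part in these counts was not tested.

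Of the genes under a cluster, 91 (76.5%) also had a peak that reached within 1 kb of an end, and 37.4% of all these genes did. Peaks near a gene end were inside the span of only 18 clusters, 20 peaks in all. Among genes whose strand was known, the middle summit of a cluster lay between 0% and 25% of the way from the 5′ end in 20 of 98 clusters, between 25% and 50% in 33, between 50% and 75% in 30 and beyond that in 15. By peak, 49.8% (47.0% to 52.7%) of the 1208 members with a gene position lay in the first 50% of the gene. Of the 7333 other distal peaks, 57.9% (56.8% to 59.1%) did. The difference is described only, since peaks of a cluster share a gene.

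Transcription factors of the B lineage were the gene list with the most members at dense clusters. Of its 20 genes, 8 had a dense cluster over the gene or within 50 kb, where 1.14% of all protein-coding genes did. The count was 4 when distal peaks within 1 kb were merged first, and 0 with −log10 q of at least 5. In the list of B-lineage receptors, signalling and recombination genes there were 3 of 20, and 0 under either of these settings. There were 2 in that of stem and progenitor factors and 1 among T-lineage genes, with 1 and 0 left after merging and 0 in both at −log10 q of at least 5. The myeloid, erythroid and megakaryocyte, housekeeping and non-blood lists had 0 each. Btk, Gata1, Alas2, Hprt and Pgk1 lie on chromosome X, where no cluster was sought, which leaves 19 genes of the receptor list and 18 each of the erythroid and housekeeping lists. No set test was made, and the lists were drawn up with earlier results of these data known.

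The lists differed in gene length and in the number of genes with a peak at either end. The median gene length was 92.5 kb for B-lineage factors, 45.2 kb for stem and progenitor factors, 20.1 kb for B-lineage receptors and signalling genes, 9.59 kb for myeloid genes and 5.93 kb for housekeeping genes. Both the B-lineage factors and the stem and progenitor factors held 9 genes of 100 kb or more, of which 5 and 2 lay under a cluster, where 2.59% of all genes of that length did. On chromosomes 1 to 19, a peak at an end was present at 17 of 18 housekeeping genes, 15 of 20 B-lineage factors, 15 of 19 B-lineage receptor and signalling genes and 9 of 20 stem and progenitor factors. It was present at 4 of 20 myeloid, 4 of 20 T-lineage, 1 of 18 erythroid and megakaryocyte and 0 of 20 non-blood genes, and at 37.4% of all protein-coding genes of these chromosomes.

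**Figure D5:**
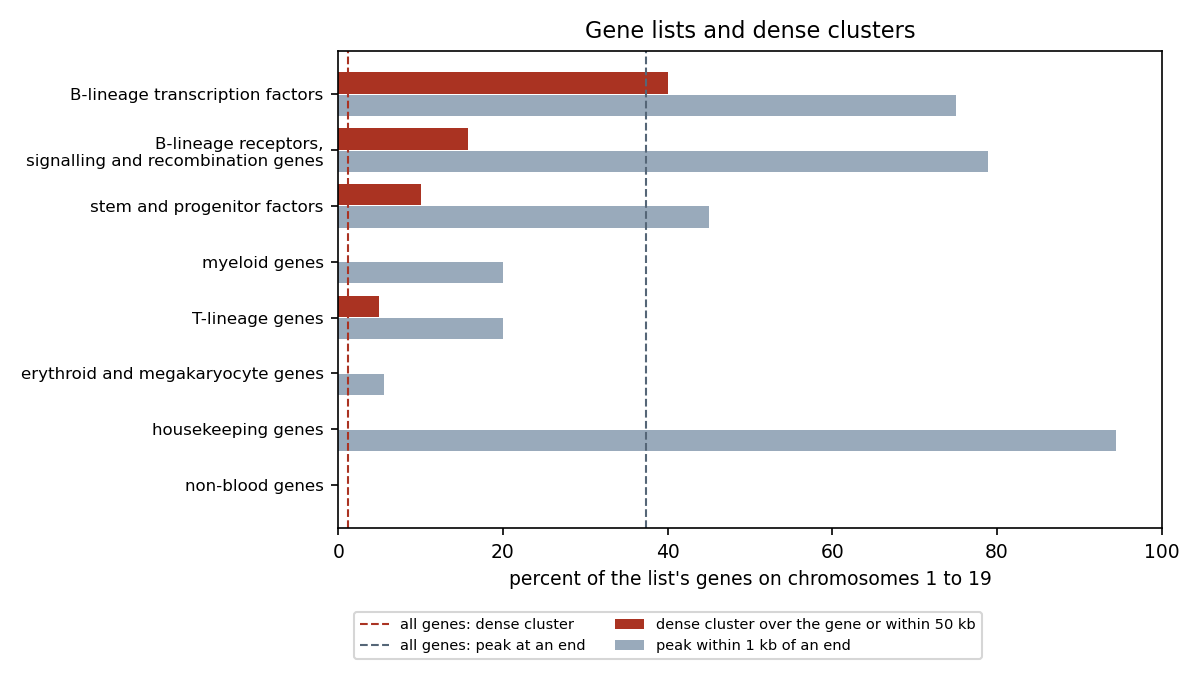
Percent of the genes of each list on chromosomes 1 to 19 (18 to 20 genes a list, horizontal axis) with a dense cluster over the gene or within 50 kb of an end (red) and with a peak within 1 kb of an end (grey). Dashed lines give the same for all protein-coding genes of chromosomes 1 to 19, at 1.14% and 37.4%. The red bar of the B-lineage factors stands for 8 genes, and housekeeping genes have a long grey bar and no red one.

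Among the B-lineage factors, Ebf1, the factor that commits cells to the B lineage, had 3 clusters in reach with 53 member peaks. The larger of the 2 over the gene held 26 peaks on chromosome 11 from 44917570 to 45001920. Its signal values ran from 1.92 to 8.51, with a median of 2.79, and its middle summit lay 88.3% along the gene. The second, with 15 peaks, had a median of 2.66 and a highest value of 4.25. In the larger cluster the strongest peak lay at 44948119 to 44952168, and the next had a signal value of 3.74. The third cluster, of 12 peaks, lay over the neighbouring gene Rnf145 and had a highest value of 6.24.

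Bach2, a repressor that keeps B cells from early plasma cell differentiation, had 2 clusters with 33 peaks, and none of them reached −log10 q of 5. Foxo1, which drives recombination and Il7r genes in early B cells, had 28 peaks in 2 clusters in reach. The Foxo1 clusters went on past the gene. A cluster of 9 peaks began 39.1 kb and a cluster of 19 peaks 90.7 kb from the nearest end, with median signal values of 3.88 and 3.45. Foxp1, a forkhead factor needed for B-cell development, had 3 clusters with 28 peaks over a gene of 597.4 kb, with signal values up to 7.04.

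Pax5, which maintains B-cell identity, had 2 clusters with 21 peaks and a highest signal value of 6.46. The larger lay 23.4% along the gene. Ets1, an ETS factor of lymphoid cells, had 16 peaks with a median of 3.25, and 7 of them had −log10 q of at least 5. It had no peak within 1 kb of an end. Ikzf1 (Ikaros) and Bcl11a, both needed for lymphoid development, had 13 peaks each. Those at Bcl11a were even, from 2.76 to 3.99, with none above a q-value of 0.05, while those at Ikzf1 ran from 2.48 to 4.86. Tcf3, Tcf4, Ikzf3, Pou2af1, Spib, Lef1, Irf4, Id3, Bcl6, Klf2, Zeb2 and Aff3 had no dense cluster in reach.

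Of the receptor and signalling genes, Blnk and Dntt are neighbours on chromosome 19 and shared 2 clusters of 10 peaks each. The highest signal values were 13.56 over Blnk and 11.11 over Dntt, which encodes terminal deoxynucleotidyl transferase. Il7r, the interleukin-7 receptor chain, had a cluster of 9 peaks within 50 kb, with a highest value of 9.37, over its neighbour Capsl. Flt3, Cd79a, Cd79b, Vpreb1, Igll1, Rag1 and Rag2 had none.

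Of the stem and progenitor factors, only Erg and Fli1, both ETS factors, had dense clusters. Fli1 had 12 peaks with signal values from 2.29 to 5.51, weaker at the top than Erg. Neither gene had a peak within 1 kb of an outer end. The strongest Erg peak did cover an annotated start, at 95459348, which lies inside the gene. Of all Erg members, even the summit closest to the outer 5′ end was 129.2 kb away from it. Fli1 had no start window, so whether its members cover a start was not tested. Meis1, Runx1, Gata2, Tal1, Lmo2, Mecom, Hlf, Hoxa9, Myb and Mef2c had none. Among T-lineage genes, Zap70, a T-cell receptor kinase, had a cluster of 8 peaks within 50 kb, over the neighbouring gene Tmem131, whose strongest peak had a signal value of 13.44. None of the 20 myeloid genes had one, Spi1, Cebpa, Csf1r and Mpo included. Of 5 surface marker genes of blood cells, Kit had a cluster of 12 peaks inside the gene, with signal values from 2.29 to 5.66. Ly6a (Sca1), Ptprc, Cd48 and Slamf1 had none in reach. The sort used the proteins of Kit, Ly6a and Ptprc (CD45). Kit and Ptprc had a peak within 1 kb of an end, as had Cd48 and Slamf1. Ly6a had none there and 3 distal peaks within 50 kb. The sort was lineage-negative. On chromosomes 1 to 19, a peak at an end was present at 15 of the 19 B-lineage receptor, signalling and recombination genes. It was present at 17 of 18 housekeeping genes and at 37.4% of all protein-coding genes there, so such a peak does not mark a lineage. The part of B-lineage cells in the dense clusters was not tested.

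Some dense clusters lay near another. With a limit of 100 kb between neighbours, 30 of the 134 clusters, with 474 members, formed 14 runs, and the others stood alone. The run at Zmiz1 had 53 peaks over 171.9 kb and that over Stx8 and Ntn1 51 peaks over 285.0 kb. The Foxo1 run had 47 peaks in 3 clusters over 243.5 kb, and its summed signal value times length, 884.3 kb, was the highest. The runs at Nedd9 and Ebf1 had 42 and 41 peaks, and others lay at Rftn1, Bach2, Celsr1 and Gramd4, Arid1b, Sipa1l1, Arap1 and Pde2a, Pax5, Blnk and Dntt, and Foxp1.

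The 15 clusters over no protein-coding gene were of several kinds. Apart from those near Foxo1 and Ppara, the largest were 13 peaks near Ly6m, 13 peaks near Btg1 and 13 peaks near Zfp36l2, at 15.5, 113.7 and 18.4 kb from the nearest gene end. Btg1 is an anti-proliferation factor and Zfp36l2 an RNA-binding protein that destabilises messenger RNAs. A cluster of 12 peaks lay 91.1 kb from Sox4, a factor of lymphoid progenitors. The nearest gene is a matter of distance, and its link to a cluster was not tested.

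On chromosome 12, 3 clusters of 12, 8 and 8 peaks lay among variable segments of the immunoglobulin heavy chain. These segments are not counted as protein-coding genes in the table, so peaks at their ends were distal by the rule. Their median signal values were 2.68, 3.27 and 2.58. Many variable segments are near copies of each other, so reads there could be placed at more than 1 of them.

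MicroRNA hairpins lay inside the span of few clusters. A cluster of 11 weak peaks, with a median signal value of 2.30 and none of −log10 q 5, overlapped Aopep and Fancc on chromosome 13 and spanned the hairpins of Mir23b, Mir27b and Mir24-1. The nearest member began 0.469 kb past Mir24-1 and had a signal value of 2.30. The hairpin of Mir139 lay inside a member of the Pde2a cluster, also with a signal value of 2.30. That of Mir3075 lay inside a Zmiz1 member with a signal value of 3.66. Mir6406, Mir5123 and Gm51278 lay outside members, at 0.052, 0.033 and 0.916 kb from the nearest, in clusters over Ntn1, B4galt1 and Foxp1, and Mir3074-1 overlapped Mir24-1 on the other strand. Mature sequences of Mir27b, Mir24-1 and Mir139, from RefSeq on GRCm38.p6, are shown 5′ to 3′ to identify them, with the seed (bases 2 to 8) in capitals.
miR-27b-3p: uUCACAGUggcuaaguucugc
miR-24-3p: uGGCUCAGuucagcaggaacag
miR-139-5p: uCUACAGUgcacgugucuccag
These 3 seeds differ. The strongest members of the Aopep and Pde2a clusters, with highest signal values of 3.40 and 9.34, lay elsewhere.

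Clusters were uneven over chromosomes. Chromosomes 4, 11 and 15 held 43 of the 134 clusters and 33.6% of the members, against 18.01% of the distal peaks. The share of distal peaks in dense clusters was 23.7% (20.8% to 26.8%) on chromosome 15 and 21.1% (18.7% to 23.7%) on chromosome 11. It was 2.93% (1.83% to 4.64%) on chromosome 18, 4.67% (3.25% to 6.67%) on chromosome 8 and 4.86% (3.71% to 6.33%) on chromosome 2, although chromosome 2 had 1050 distal peaks. Peaks of a cluster are not independent, so these intervals are too narrow for a comparison of chromosomes.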

How the data were processed

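H3K27ac was measured by ChIPmentation, in which the Tn5 transposase adds adapters to immunoprecipitated chromatin. BWA, MACS2 and mm10 are named in the submitters' processing notes, with no role or setting given. The authors deposited 1 peak list for the 4 H3K27ac libraries over input. Its seventh column was taken for an enrichment ratio made by the authors, and its other values are a deposited score, −log10 p and −log10 q. Total depth is unknown.

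Gene ends and start windows came from RefSeq tables of GRCm38.p6, the assembly of mm10. Coordinates are 1-based. No genome was used here, so the planned motif search at summits was made in the start windows instead. Clusters are named by the protein-coding gene they overlap most, or by the nearest end. The rule for names took the 15 clusters with the most peaks, the extremes of sum, packing and median signal value, the largest over no gene and list genes in reach. The Inpp5d, Cd47, Sox4, Kit, microRNA, heavy chain and Celsr1 to Sipa1l1 entries were chosen after their values were seen. Members and lists were chosen with earlier results of these data known. Joining was tested on simulated data. Python 3.11.15, numpy 2.4.6, pandas 2.3.3, scipy 1.17.1 and matplotlib 3.10.9 were used.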

Additional observations from a re-analysis of the deposited data

How the results depend on the processing

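Of 151 values under other settings, 100 stayed within the limits used and 51 moved, with no change of sign. With a gap of 5 kb there were 57 clusters, 634 members (4.14% of distal peaks), a difference in median signal value of -0.061 and in median width of 187.5 bp, 0.484% of genes in reach and 1 stem and progenitor factor. With 20 kb there were 2576 members (16.8%), a width difference of 74 bp, 1.79% of genes and 2 T-lineage genes. With 6 or more peaks there were 251 clusters (15.7% of distal peaks), 2.14% of genes, 5 B-lineage receptor and signalling genes and 1 housekeeping gene. With 10 or more there were 89 clusters (8.42%), 0.711% of genes and 0 T-lineage genes. With distal set at 2.5 kb there were 0 T-lineage genes, and with the ends of all annotated genes 10.3% of distal peaks were members. A q-value of at most 0.05 left 68 clusters, 721 members (6.52%), a width difference of 276.5 bp, 0.537% of genes and 0 T-lineage genes. A −log10 q of at least 5 left 0 clusters, 0 members and 0 genes of each list, so the differences of medians and the share over a gene had no value there. Merging distal peaks within 1 kb left 41 clusters, 423 members (3.52%), differences of -0.18 in signal value and 382 bp in width, 0.353% of genes, 4 B-lineage factors, 0 B-lineage receptor and signalling genes, 1 stem and progenitor factor and 0 T-lineage genes. Overlap alone gave 0.576% of genes and 0 T-lineage genes, and a reach of 100 kb 1.74% and 1 housekeeping gene. Fewer or more joined peaks follow from how these settings are built, and other causes were not tested. The merging setting counts merged regions. No paired analysis was possible because values of single libraries are not part of the peak list, and for that reason no library could be left out. Depth is unknown.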
